A study of Mus musculus with 8 samples.

Results

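Meis1, Meis2 and Pbx3 encode homeodomain transcription factors of the TALE class, named for an extra loop of amino acids in the DNA-binding domain. MEIS and PBX proteins bind DNA together and with other homeodomain factors, and in the ventral telencephalon Meis2 is known from progenitors and projection neurons of the lateral ganglionic eminence. Accessible chromatin marks promoters and candidate regulatory elements, so the elements over a gene describe where its locus is open in a given tissue.

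The accessible elements of Meis1, Meis2 and Pbx3 were examined in single-nucleus ATAC-seq of the wild-type mouse embryonic brain, in which a transposase cuts open DNA in isolated nuclei. The series held 8 samples, 2 each from the cortex (CTX) and from the medial, lateral and caudal ganglionic eminences (MGE, LGE and CGE, together GE), the ventral structures that give rise to GABAergic neurons. The labelled age was E12.5, or E14.5 in the case of CTX replicate 2, and no allele, transgene or treatment was named for any of them. The labels do not say whether replicates came from separate litters or how many embryos were pooled, so the p-values measure the spread between these samples, which may be technical. An element was a stretch where peaks of the 8 samples overlapped and were merged, and it was kept where it touched a gene body or the 20 kb upstream of it in the GRCm38 genome build. Of 292532 merged regions in all, 161 were elements of these genes, with 40 at Meis1, 69 at Meis2 and 52 at Pbx3.

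The 39253 nuclei were spread over samples of 3465 to 6845 nuclei, with 77387940 to 138873845 counts a sample, and samples shared at most 56 nuclear barcodes in pairs. The MGE markers Nkx2-1, Lhx6 and Lhx8, 3 of 4 CTX markers (Emx1, Emx2 and Neurod6), and 2 of 3 CGE markers (Nr2f1 and Nr2f2) were each higher in both samples of their own region than in the other 6 samples. Tbr1, the other CTX marker, stood at 174 CPM (defined below) in CTX replicate 1 and 81.7 in CTX replicate 2 against 70.9 to 108.5 in GE, and the CGE marker Prox1 was highest in MGE. None of the 3 LGE markers met that rule, with Gsx2 highest in LGE on average, Ebf1 in CGE and Isl1 in MGE, so the label of the LGE samples could not be checked in this way. The CTX samples differed in the classes of their nuclei. These shares do not settle the order of their ages, so the age labels could not be checked in this way. In the library labelled E12.5, 75.6% of nuclei were glutamatergic neuron-like and 20.3% progenitor-like, while in the library labelled E14.5 10.9% were glutamatergic neuron-like and 83.4% fell in clusters that no marker list named. At a finer clustering (resolution 1 in place of 0.5) the progenitor-like nuclei of the first library joined the glutamatergic neuron-like class, which then held 95.8% of it. Age and replicate cannot be told apart in this pair, and CTX values are given by library below, with a class given only where a library held at least 50 of its nuclei.

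All of the genes are read from the minus strand. Meis1 lies at chr11:18879817-19018985, Meis2 at chr2:115863064-116065839 and Pbx3 at chr2:34171457-34373142, and their windows hold no other protein-coding gene, though annotated genes that do not code for protein overlap each of them. Elements were numbered within each gene in the direction of transcription. RefSeq promoter sequences for build GRCm38.p6, from 250 bases before to 50 after the gene start, were matched for Meis1 and Meis2 but not Pbx3. The RefSeq start of Meis2 differs from that of the annotation used for the elements, so its promoter window lies wholly inside the gene body given above. The promoters are shown because the start-site elements had the highest CPM of both genes, summed over their width. These promoters lie inside Meis1 element 5 and Meis2 element 3.
Meis1 promoter, chr11:19018920-19019219, minus strand: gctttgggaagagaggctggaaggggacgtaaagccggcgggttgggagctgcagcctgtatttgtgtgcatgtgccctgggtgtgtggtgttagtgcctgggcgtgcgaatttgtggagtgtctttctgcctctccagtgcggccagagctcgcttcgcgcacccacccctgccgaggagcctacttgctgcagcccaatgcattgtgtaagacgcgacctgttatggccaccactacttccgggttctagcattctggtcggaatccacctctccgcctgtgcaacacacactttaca
Meis2 promoter, chr2:116064570-116064869, minus strand: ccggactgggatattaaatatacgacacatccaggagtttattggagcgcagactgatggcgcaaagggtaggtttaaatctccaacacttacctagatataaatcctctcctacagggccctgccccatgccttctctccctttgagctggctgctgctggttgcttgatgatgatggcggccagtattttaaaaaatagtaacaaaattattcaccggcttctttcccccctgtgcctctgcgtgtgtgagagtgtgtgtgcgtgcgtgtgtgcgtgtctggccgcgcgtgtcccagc

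Most of the elements with the largest differences were intronic or overlapped an exon away from the gene start. The central 300 bases of 4 of them are given from GRCm38, chosen among the elements with large differences below for being covered whole by the peaks of at least 5 samples. Capitals mark the words TGACAG (the core of a MEIS site), TAATTA (a homeodomain core) and CAGATG (an E-box) on either strand. Meis2 element 12 was low in MGE, Meis1 element 21 and Pbx3 element 25 were low in CTX, and Pbx3 element 36 was high in CTX.
Meis2 element 12, chr2:116036139-116036438, plus strand: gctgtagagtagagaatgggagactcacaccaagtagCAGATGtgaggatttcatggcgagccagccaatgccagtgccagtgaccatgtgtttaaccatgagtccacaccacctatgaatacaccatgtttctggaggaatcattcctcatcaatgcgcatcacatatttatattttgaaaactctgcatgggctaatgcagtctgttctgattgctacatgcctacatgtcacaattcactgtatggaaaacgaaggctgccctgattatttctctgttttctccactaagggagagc
Meis1 element 21, chr11:18954266-18954565, plus strand: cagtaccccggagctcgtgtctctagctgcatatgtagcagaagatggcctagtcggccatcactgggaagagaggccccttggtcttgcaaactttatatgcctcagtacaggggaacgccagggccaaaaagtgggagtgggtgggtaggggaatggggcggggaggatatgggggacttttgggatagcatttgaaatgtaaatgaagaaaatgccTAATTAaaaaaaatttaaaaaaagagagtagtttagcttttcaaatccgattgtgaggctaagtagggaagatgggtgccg
Pbx3 element 25, chr2:34260832-34261131, plus strand: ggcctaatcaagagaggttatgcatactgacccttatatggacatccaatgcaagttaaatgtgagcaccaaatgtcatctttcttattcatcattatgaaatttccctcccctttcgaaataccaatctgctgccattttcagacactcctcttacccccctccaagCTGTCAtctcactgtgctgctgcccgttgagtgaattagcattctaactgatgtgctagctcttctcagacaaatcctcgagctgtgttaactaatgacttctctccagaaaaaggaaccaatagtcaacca
Pbx3 element 36, chr2:34225391-34225690, plus strand: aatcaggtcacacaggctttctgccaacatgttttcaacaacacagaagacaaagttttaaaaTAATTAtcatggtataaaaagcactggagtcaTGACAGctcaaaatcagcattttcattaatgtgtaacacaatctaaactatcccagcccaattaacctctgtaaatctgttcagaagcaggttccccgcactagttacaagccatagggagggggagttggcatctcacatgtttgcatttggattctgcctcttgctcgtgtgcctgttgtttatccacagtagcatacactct

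Across the central 300 bases of the 43 elements with a peak in every sample, TGACAG occurred in 8 (18.6%), against 22.1% of the 68274 such regions of the genome. It was found in 0 of 12 Meis1 windows, 2 of 15 Meis2 windows and 6 of 16 Pbx3 windows. TAATTA occurred in 5 of the 43 (11.6%, against 9.78% of all), CAGATG in 9 (20.9% against 22.2%) and the E-box CAGCTG in 3 (6.98% against 20.7%). The PBX-HOX type word TGATTGAT occurred in 1 (against 0.807% of all), and the PBX-MEIS type word TGATTGAC (0.825% of all) and the NKX2-1 type word TCAAGTG (3.74% of all) in 0. These 7 words were searched on both strands, TGATTGAC and TGATTGAT share their first 7 letters, and a match is a description of the letters alone. Neither promoter held any of the 7 words, of which TGACAG occurred in 19.2% and TAATTA in 5.29% of 32851 RefSeq promoters.

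The 3 loci differed in how widely they were called open. At Meis2, 50 of the 69 elements had a peak in CTX replicate 1 and 27 in CTX replicate 2, against 16 and 24 in the MGE samples, 33 and 61 in the LGE samples and 37 and 51 in the CGE samples. Both MGE samples thus lay below every other sample for Meis2, while over all merged regions the share with a peak was 34.1% and 53.0% in MGE and 32.5% to 60.1% in the other samples. At Meis1 the number ran from 16 of 40 in CTX replicate 1 and MGE replicate 1 to 36 in CGE replicate 2, and at Pbx3 from 22 of 52 in MGE replicate 1 to 43 in CGE replicate 2. Of all 161 elements 59 (36.6%) had peaks in GE samples alone, against 23.9% of all merged regions, and 11 (6.83%) in CTX samples alone, against 25.9% of all. Peaks were called separately in each sample, so a missing peak sets the count of an element to 0 there. The comparisons of elements therefore used the 43 elements with a peak in all 8 samples, and the other 118 were not tested. Levels are counts per 1000000 (CPM) of the sample's counts in the regions with a peak in all 8 samples. An element is termed the most open where its mean CPM is highest, whatever its width.

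The start-site domains had the highest CPM of each locus, summed over elements of unequal width. Meis1 element 5 averaged 135.7 CPM over 15596 bp and Meis1 element 32 averaged 48.7 over 4368 bp, so this is not an order per kb. Meis2 element 3, a domain of 22168 bp over the gene start, was at 227 and 178 CPM in the CTX replicates, at 187 and 172 in MGE, at 229 and 262 in LGE and at 194 and 217 in CGE. The eminences did not overlap, with MGE lowest and LGE highest, and CTX spanned most of their range. None of its contrasts was called (adjusted p from 0.137 to 0.973). Meis1 element 5 stood at 90.2 and 95.1 CPM in CTX, and at 136.9 to 161.4 in the 6 GE samples with a median of 148.8. Pbx3 element 2 stood at 53.6 and 65.9 CPM in CTX and at 73.5 to 110.4 in GE with a median of 97.3, so both CTX libraries were below every GE sample at Meis1 and Pbx3. The difference was called for Meis1 element 5 (log2 fold −0.64, SE 0.12, adjusted p = 0.0147 by edgeR's quasi-likelihood test) and not for Pbx3 element 2 (log2 fold −0.62, SE 0.19, adjusted p = 0.0763).

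**Figure D1:**
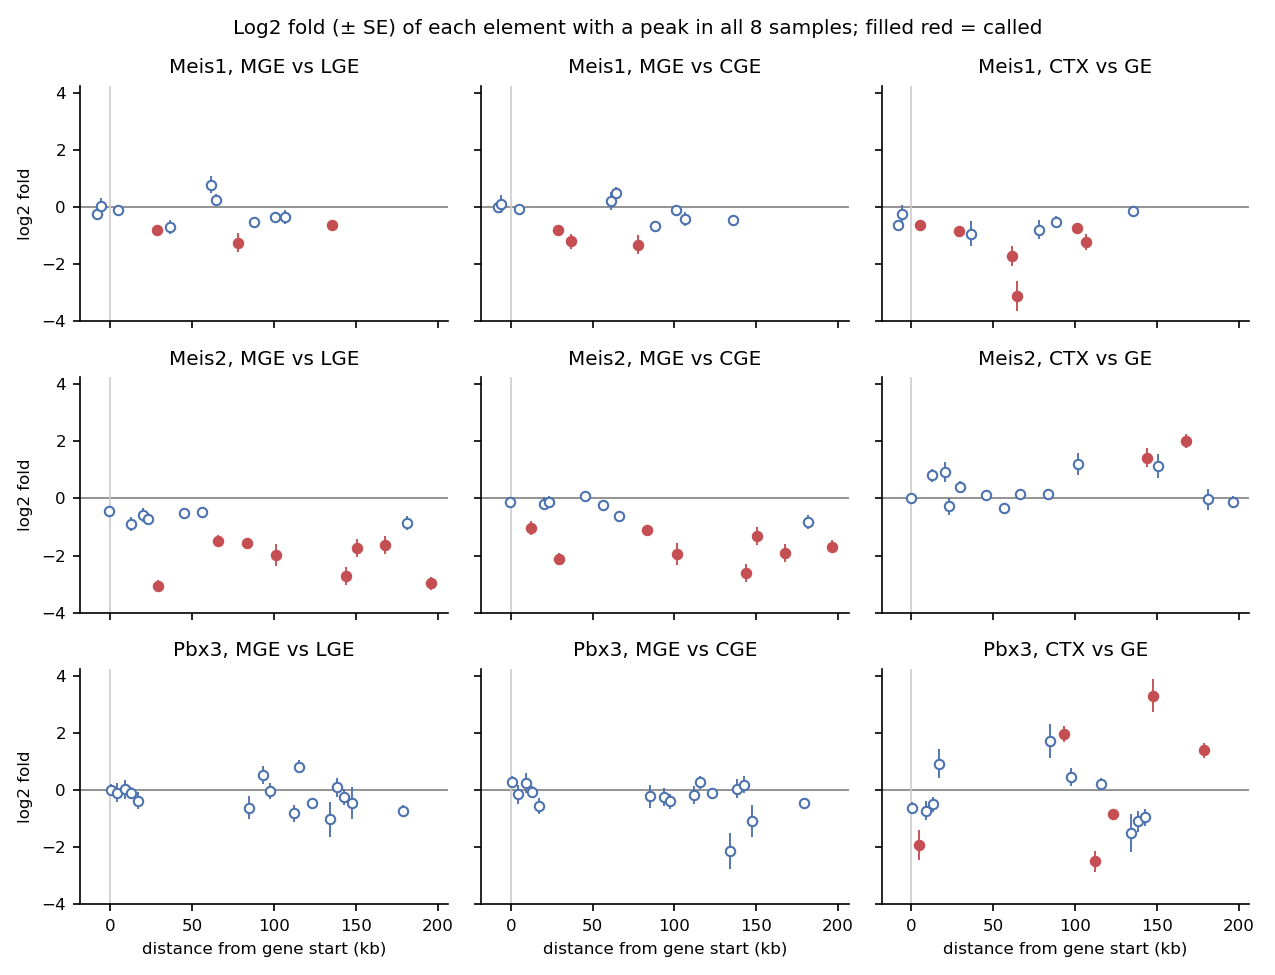
Log2 fold with its SE (y axis) of each element with a peak in all 8 samples against the distance of its centre from the gene start in kb (x axis), for the 3 genes and 3 contrasts, with called elements filled in red. At Meis2 the called elements of the MGE contrasts all lie below 0 and inside the gene body. At Pbx3 the called elements of CTX against GE lie on both sides of 0.

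The comparison of MGE with the other eminences asked which elements differed between ventral regions of the same labelled age. At Meis2 8 of the 15 tested elements were lower in MGE than in LGE and 8 lower in MGE than in CGE, and none was higher. Glutamatergic neuron-like nuclei made up 0.234% and 1.65% of the MGE samples against 10.8% to 26.1% of the LGE and CGE samples, and levels within the other classes are given further on. At Meis1 3 of 12 were lower in each contrast, and at Pbx3 0 of 16 were called. Of the 16, 4 and 2 had an unadjusted p under 0.05, where 16524 and 16234 of all 68274 regions did. Over the 3 genes 11 of 43 were called in each contrast, with 9 elements in both lists (81.8% of each), though the lists share the MGE samples. Of all 68274 regions 10.6% were called between MGE and LGE (4.86% higher and 5.79% lower in MGE) and 9.4% between MGE and CGE (3.56% higher and 5.84% lower). The median log2 fold over the 15 Meis2 elements was −1.49 against LGE and −1.04 against CGE, while over all regions it was −0.012 and −0.0017. With an offset for the length covered by peaks in each sample, 6 elements were called between MGE and LGE and 1 between MGE and CGE. With all 8 samples in the fit the counts were 4 and 1, and with regions that had a peak in 2 or more samples 5 and 4. Without CGE replicate 2 the second contrast had 4 calls, without MGE replicate 1 5, without CGE replicate 1 6, and without either LGE sample the first had 7.

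Meis2 element 12, which overlaps an annotated exon 29.6 kb inside the gene, had the largest difference from LGE. It stood at 3.03 and 2.75 CPM in MGE replicates 1 and 2, at 24.5 and 24.7 in LGE, and at 14.7 and 11.9 in CGE. None of these groups overlapped, with MGE lowest and LGE highest. MGE was 8.36-fold lower than LGE (log2 fold −3.06, SE 0.20, adjusted p = 0.00113) and 4.34-fold lower than CGE (log2 fold −2.12, SE 0.19, adjusted p = 0.00256). Under the offset for covered length the log2 folds were −1.66 and −1.16, both called. The CTX libraries, at 14.47 and 10.7 CPM, lay within the range of the GE samples.

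Meis2 element 45 overlaps an exon 143.9 kb inside the gene and stood at 1.73 and 3.64 CPM in MGE, 17.4 and 18.0 in LGE, and 17.1 and 16.7 in CGE. MGE lay well apart from both, whereas LGE and CGE differed by little more than their own replicates. The log2 fold was −2.72 (SE 0.32, adjusted p = 0.00347) against LGE and −2.60 (SE 0.32, adjusted p = 0.00481) against CGE. This element spans 8124 bp, and the length of it called as peak ran from 491 bp in MGE replicate 1 to 6642 bp in CTX replicate 1. With the covered-length offset the log2 fold was −1.09 against LGE, still called, and −0.77 against CGE, not called, and with all 8 samples in the fit neither contrast was called (adjusted p = 0.0571 and 0.0724).

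Meis2 element 67, 196.2 kb inside the gene, covers the annotated start of a short Meis2 transcript near the end of the locus. It stood at 1.67 and 1.92 CPM in MGE, 15.9 and 12.8 in LGE, and 6.49 and 5.66 in CGE, so the eminences were ordered MGE, CGE, LGE with no overlap. The log2 fold of MGE was −2.98 against LGE (SE 0.22, adjusted p = 0.00163) and −1.68 against CGE (SE 0.22, adjusted p = 0.00525). Under the offset for covered length the log2 fold against LGE was −0.54 and not called. Meis2 element 33, in an intron, was low everywhere, at 1.08 and 0.887 CPM in MGE against 3.17 and 4.68 in LGE and 3.23 and 4.70 in CGE. Its log2 fold against CGE was −1.94 (SE 0.37, adjusted p = 0.0184), and the call was lost under 6 of 14 alternatives, among them leaving out MGE replicate 1, MGE replicate 2 or CGE replicate 2 (adjusted p = 0.0672, 0.0555 and 0.113). It was −0.068 with the covered-length offset.

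Not all of the open Meis2 elements followed this order. Element 18, the most open Meis2 element away from a start site, stood at 35.3 and 33.5 CPM in MGE, 49.7 and 50.4 in LGE and 36.1 and 32.7 in CGE. MGE and CGE overlapped, LGE was above both, and the difference of MGE from LGE was not called (log2 fold −0.52, SE 0.14, adjusted p = 0.0588).

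**Figure D2:**
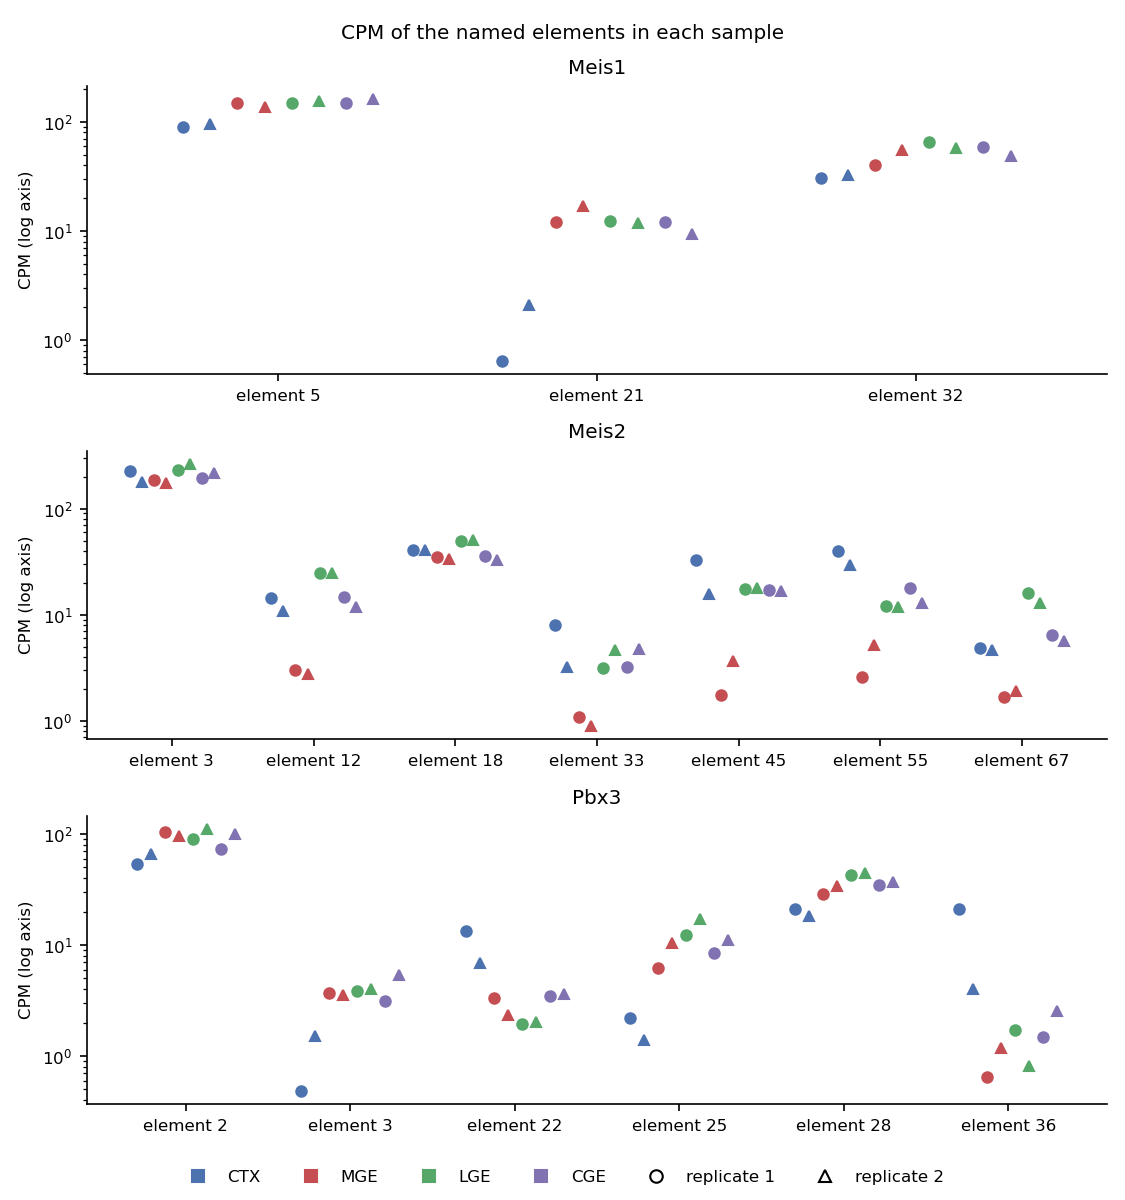
CPM on a log axis (y axis) of the named elements of Meis1, Meis2 and Pbx3 (x axis) in each of the 8 samples, coloured by region, with circles for replicate 1 and triangles for replicate 2. The MGE samples sit at 1.67 to 3.64 CPM in Meis2 elements 12, 45 and 67, below every other sample, while element 3 lies between 172 and 262 CPM in all samples.

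At Meis1 the 3 called against LGE had log2 folds of −1.25, −0.79 and −0.62, and the 3 called against CGE had −1.31, −1.20 and −0.79. Meis1 element 32, an intronic element and the most open one away from a start site, stood at 40.3 and 55.5 CPM in MGE, 65.5 and 57.3 in LGE and 59.3 and 48.7 in CGE. MGE overlapped CGE and lay just below LGE, and neither contrast was called (adjusted p = 0.298 and 0.778).

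Few differences between LGE and CGE passed the test at these loci. Of the 43 elements 0 were called by edgeR, 8 had an unadjusted p under 0.05, and DESeq2 called 4. Of all 68274 regions 2 were called (0.00293%), with 8247 at an unadjusted p under 0.05 and 2754 called by DESeq2. The smallest p among elements higher in LGE was that of Meis2 element 67, at a log2 fold of 1.29 (SE 0.21, adjusted p = 0.102, called by DESeq2), and among elements lower in LGE that of Pbx3 element 22, at −0.78 (SE 0.31, adjusted p = 0.36). For Pbx3 element 22 the LGE samples stood at 1.96 and 2.02 CPM and the CGE samples at 3.46 and 3.65.

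The comparison of CTX with GE, the mean of the 3 eminences on the log scale, asked which elements differ between dorsal and ventral samples. CTX replicate 2 is labelled E14.5 and the 6 GE samples E12.5, so region and age cannot be told apart for that library. Of the 43 elements 14 were called, 5 higher and 9 lower in CTX, while 14.9% of all regions were called, 9.49% higher and 5.39% lower. By gene, at Meis1 6 of 12 elements were lower in CTX and 0 higher, at Meis2 2 of 15 were higher and 0 lower, and at Pbx3 3 of 16 were higher and 3 lower. The share called at Meis2, 13.3%, was no higher than that of all regions. The median log2 fold was −0.75 over the Meis1 elements, 0.17 over the Meis2 elements and −0.57 over the Pbx3 elements, against 0.026 over all regions. With the covered-length offset 5 elements were called, and between 7 and 20 when 1 sample was left out, with 7 or 8 without any of the LGE or CGE samples. Bulk sums over nuclei cannot tell fewer cells of a type from less accessibility per cell.

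Meis1 element 21, an intronic element 64.6 kb inside the gene, stood at 0.639 and 2.09 CPM in CTX replicates 1 and 2. The 6 GE samples ranged from 9.38 to 16.8 CPM with a median of 12.02, so both CTX libraries lay far below all of them. CTX was 8.66-fold lower (log2 fold −3.11, SE 0.51, adjusted p = 0.0104). Leaving out CTX replicate 1 gave a log2 fold of −2.46 and leaving out CTX replicate 2 one of −4.21, and with the covered-length offset it was −1.38, called in each case. The start-site element and element 32 of Meis1 were among the 6 called, and CTX stood at 30.5 and 32.8 CPM in element 32 (log2 fold −0.71, SE 0.15, adjusted p = 0.024).

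Meis2 element 55, an intronic element, was 39.6 and 29.5 CPM in CTX, above the 2.58 to 17.8 CPM of the GE samples with a median of 11.9. The log2 fold of 2.01 (SE 0.26, adjusted p = 0.00505) became 1.22 under the covered-length offset and was still called. Meis2 element 45 was also called higher in CTX (log2 fold 1.43, SE 0.33, adjusted p = 0.0289), but CTX replicate 1 stood at 32.5 CPM and CTX replicate 2 at 15.6, which lies within the GE range of 1.73 to 18.0.

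Pbx3 went both ways. Pbx3 element 36, an intronic element 147.6 kb inside the gene, reached 21.2 CPM in the first CTX replicate but 3.99 in the second, with GE samples from 0.644 to 2.57 and a median of 1.33. Both CTX libraries were above GE, and they differed from each other more than CTX replicate 2 differed from GE. The log2 fold was 3.30 (SE 0.57, adjusted p = 0.0121), and it fell to 1.68 without CTX replicate 1 (adjusted p = 0.0409) and rose to 4.05 without CTX replicate 2. It was 2.18 with the covered-length offset and called, and the call was lost without MGE replicate 1 (adjusted p = 0.0501). Pbx3 element 22, in an intron, stood at 13.4 and 6.84 CPM in CTX against 1.96 to 3.65 in GE with a median of 2.81 (log2 fold 1.95, SE 0.29, adjusted p = 0.00751), and with the covered-length offset the log2 fold was 0.81 and not called.

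In the other direction, Pbx3 element 25, an intronic element, stood at 2.19 and 1.40 CPM in CTX against 6.16 to 17.1 in GE with a median of 10.7. No CTX library reached a GE sample (log2 fold −2.51, SE 0.38, adjusted p = 0.00794), and with the covered-length offset the log2 fold was −1.72 and called. Pbx3 element 3, which overlaps an exon, stood at 0.481 and 1.503 CPM in CTX against 3.12 to 5.34 in GE with a median of 3.77 (log2 fold −1.93, SE 0.52, adjusted p = 0.0482), and its call was lost under 11 of 15 alternatives, among them leaving out CTX replicate 1 or any GE sample. With 1 sample left out the log2 fold of element 3 ran from −2.98 to −1.29. Pbx3 element 28, in an intron and the most open one away from a start site, stood at 21.2 and 18.2 CPM in CTX against 28.6 to 44.7 in GE with a median of 35.8 (log2 fold −0.83, SE 0.14, adjusted p = 0.0122).

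Summed over all peaks of a gene, MGE was the lowest of the eminences at Meis1 and Meis2, with fewer calls than over elements. Meis2 stood at 621.9 and 420.6 CPM in CTX, 312 and 327 in MGE, 559 and 628 in LGE and 454 and 483 in CGE. MGE was lowest, with neither of its samples reaching another region, and CTX reached from below CGE into LGE. Against LGE the log2 fold of MGE was −0.91 (SE 0.10, adjusted p = 0.0455), where 0.109% of 18362 genes were called. Against CGE it was −0.55 (SE 0.10, adjusted p = 0.151), not called by edgeR, which again called 0.109% of genes. DESeq2 called it, with 640 of all 18692 genes in that contrast. The log2 fold of LGE against CGE was 0.36 (SE 0.10, adjusted p = 1 by edgeR), where 0% were called, with 695 genes at an unadjusted p under 0.05 and 99, Meis2 among them, called by DESeq2. These sums depend on how much of the gene was covered by peaks, which was 37.9 and 47.9 kb in MGE, 64.2 and 99.9 in LGE, 71.3 and 97.7 in CGE, and 105.1 and 59.0 in CTX. Per kb of peak, Meis2 stood at 8.24 and 6.81 CPM in MGE, 8.71 and 6.28 in LGE, 6.36 and 4.94 in CGE, and 5.92 and 7.13 in CTX, so the groups overlapped except that CGE lay below MGE. With the covered-length offset the log2 fold was −0.015 against LGE and turned to 0.41 against CGE, and the call against LGE was also lost without MGE replicate 1, either LGE sample or CGE replicate 1 (adjusted p = 0.0529 to 0.152) and with the replicates as a block (adjusted p = 0.13).

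Meis1 stood at 210.2 and 236.8 CPM in CTX and at 284 to 392 in GE with a median of 373. Both CTX libraries lay below GE (log2 fold −0.63, SE 0.12, adjusted p = 0.0262), where 5.46% of 18595 genes were called. MGE, at 284 and 320.5 CPM, lay below LGE, at 380.0 and 367, and below CGE, at 392 and 389. Neither difference was called by edgeR (adjusted p = 0.39 and 0.309). DESeq2 called both, with 664 and 640 of all 18692 genes in those contrasts. The log2 fold of MGE against CGE, −0.37, turned to 0.18 with the covered-length offset, which moved the median of all genes to 0.12. The length called as peak was 31.2 and 36.3 kb in CTX and 31.7 to 57.2 kb in GE, and the level per kb was 6.74 and 6.53 CPM in CTX and 6.81 to 10.9 in GE. The call between CTX and GE was lost with the covered-length offset (log2 fold −0.30, with the median of all genes at −0.17). It was also lost without CTX replicate 1 or any LGE or CGE sample. Pbx3 stood at 219 and 232 CPM in CTX and at 242.7 to 326 in GE with a median of 285, and no contrast of it was called. Replicate 2 was above replicate 1 in all 4 regions, and within MGE, LGE and CGE this gap was wider than that between the region means. The share of odd values among the deposited entries was also split by replicate number, at 9.54% to 10.4% in replicate 1 and 5.17% to 5.85% in replicate 2, and its part in the gap was not tested.

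**Figure D3:**
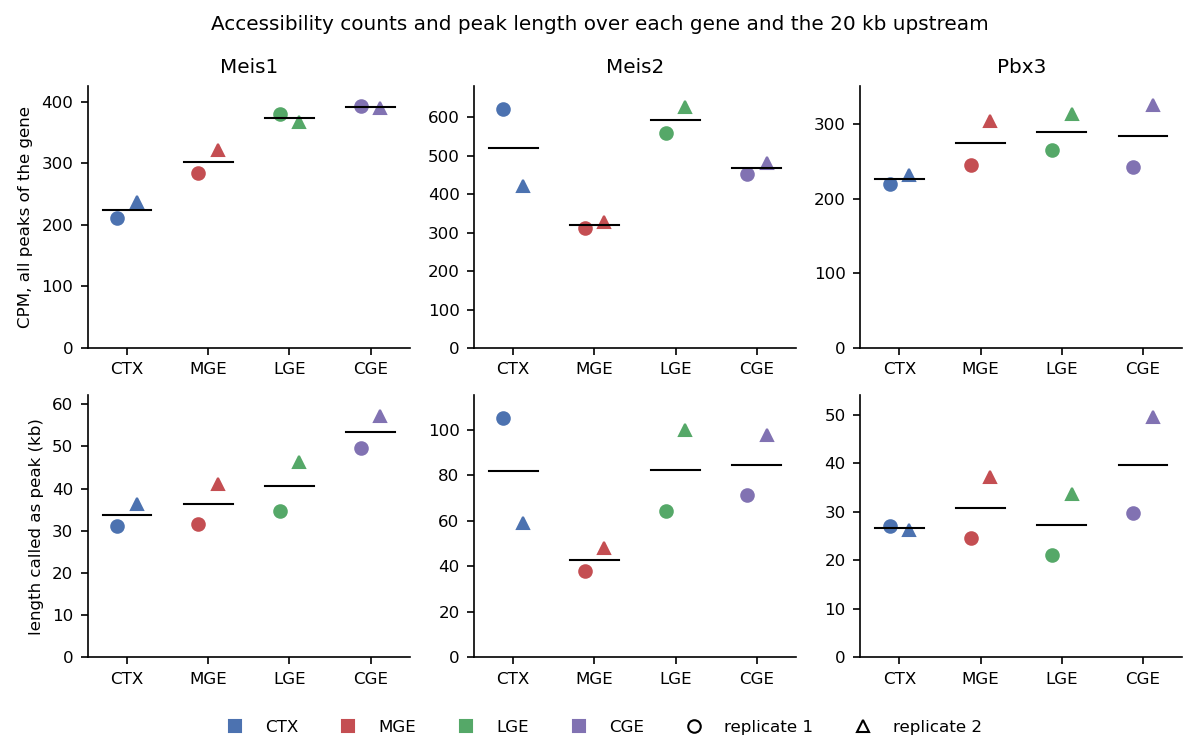
CPM summed over all peaks of each gene (upper panels) and the length called as peak in kb (lower panels) by region (x axis), with circles for replicate 1, triangles for replicate 2 and a bar for the mean. Meis2 in MGE, at 312 and 327 CPM and 37.9 and 47.9 kb, is below every other sample in both, and Meis1 in CTX is below every GE sample in CPM.

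Nuclei were grouped on regions of the other chromosomes, so the loci did not shape the classes, whose levels are a description with no test. Classes were named from marker accessibility as progenitor-like, GABAergic neuron-like and glutamatergic neuron-like. Different clusters filled a class in different regions. GABAergic-like nuclei of MGE were mostly cluster 0, and those of LGE and CGE clusters 2 and 8. Progenitor-like nuclei of MGE were mostly cluster 3, and those of LGE and CGE cluster 1 in replicate 1 and cluster 4 in replicate 2. Glutamatergic-like nuclei of CTX replicate 1 were cluster 7, and those of CTX replicate 2 and the eminences cluster 5. Of the 832 progenitor-like nuclei of CTX replicate 1, 831 were cluster 9, which held no other sample. The 137 GABAergic-like nuclei of that library were all cluster 0, at a median of 3515 counts.

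Within progenitor-like nuclei, Meis2 stood at 369 and 397 CPM in MGE, 594 and 648 in LGE, 478 and 506 in CGE, and 732 in CTX replicate 1. Within GABAergic-like nuclei it stood at 269 and 243 in MGE, 561 and 646 in LGE, and 447 and 489 in CGE, and in the 137 such nuclei of CTX replicate 1 at 219. MGE was thus lowest of the eminences in both classes, with no overlap. These class sums also run over the peaks of each sample, which covered 37.9 and 47.9 kb in MGE against 64.2 to 99.9 kb in LGE and CGE. They were not adjusted for that length. GABAergic-like nuclei were below progenitor-like nuclei in both MGE samples, by log2 differences of −0.46 and −0.71, whereas in LGE and CGE the differences lay between −0.096 and −0.0060. Glutamatergic-like nuclei stood at 611 CPM in the first CTX replicate and 348 in the second, at 434 to 475 in LGE and CGE, and at 254 in MGE replicate 2.

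In both classes Meis2 elements 12, 33, 45, 55 and 67 were lower in each MGE sample than in any LGE or CGE sample, and elements 3 and 18 were so in GABAergic-like but not in progenitor-like nuclei. Elements 12, 33, 45, 55 and 67 had been called lower in MGE in both contrasts over all nuclei. The class counts are part of those counts, so they are not separate evidence, and no share over all regions was computed. They also run over each sample's own peaks and were not adjusted for the length covered. Over all nuclei the covered-length offset kept both MGE calls of element 12. It lost those of elements 33 and 45 against CGE and of element 67 against LGE. Meis2 element 12 stood at 4.18 and 3.77 CPM in progenitor-like nuclei of MGE against 32.1 and 29.8 in LGE and 20.8 and 16.5 in CGE. In GABAergic-like nuclei it stood at 2.12 and 1.51 in MGE against 18.4 and 20.2 in LGE and 10.1 and 9.74 in CGE, so in each of the 6 samples it was lower in GABAergic-like than in progenitor-like nuclei. Meis2 element 45 stood at 1.29 and 2.81 CPM in progenitor-like nuclei of MGE and at 2.09 and 4.69 in GABAergic-like nuclei, against 18.2 to 20.4 and 13.9 to 19.8 in LGE and CGE. In CTX replicate 1 element 45 stood at 50.6 CPM in progenitor-like and 29.4 in glutamatergic-like nuclei, and in CTX replicate 2 at 5.995 in the latter. In progenitor-like nuclei element 18 stood at 43.3 and 43.4 CPM in MGE against 38.9 and 38.4 in CGE and 54.8 and 57.3 in LGE, and element 3 at 228 and 222 in MGE, 203 and 222 in CGE and 234 and 257 in LGE.

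Meis1 stood at 284 and 316 CPM in progenitor-like nuclei of MGE against 362 to 404 in LGE and CGE, and at 289 and 331 in GABAergic-like nuclei of MGE against 394 to 416. Glutamatergic-like nuclei were lowest in CTX, at 192 and 213 CPM, against 310.4 to 373 in LGE and CGE and 296 in MGE replicate 2. Meis1 element 21 stood at 0.442 and 1.54 CPM in glutamatergic-like nuclei of CTX, against 4.30 to 7.45 in those of LGE and CGE and 5.49, from 4 counts, in those of MGE replicate 2. For Pbx3 the sign of the difference between classes varied. GABAergic-like nuclei were above progenitor-like nuclei in the LGE and CGE samples, by log2 differences of 0.27 to 0.33, and stood at −0.086 and 0.14 in MGE replicates 1 and 2. Pbx3 element 36 stood at 24.9 CPM in glutamatergic-like nuclei of CTX replicate 1 and at 8.91 in those of CTX replicate 2, against 4.93 in progenitor-like nuclei of CTX replicate 1. In glutamatergic-like nuclei of LGE and CGE it stood at 1.27 to 6.79, and in GABAergic-like nuclei of the eminences at 0.645 to 1.51. In the 57 glutamatergic-like nuclei of MGE replicate 2 it stood at 13.7, from 10 counts, above CTX replicate 2.

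**Figure D4:**
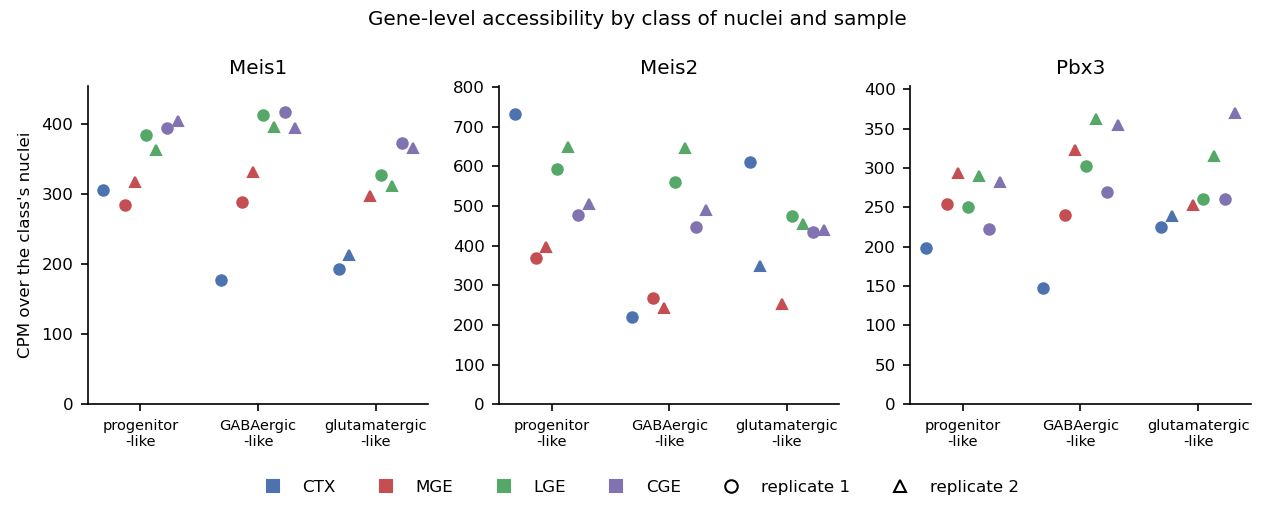
CPM of Meis1, Meis2 and Pbx3 (y axis) over the nuclei of each class (x axis), for every sample with at least 50 nuclei of the class, coloured by region, with circles for replicate 1 and triangles for replicate 2. Meis2 in MGE, at 243 to 397 CPM, lies below LGE and CGE in progenitor-like and GABAergic-like nuclei.

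A chosen list of 13 other TALE homeobox genes was tested in full, and edgeR called 0 in each of the 3 contrasts between eminences. DESeq2 called Tgif2 between MGE and CGE, where it called 640 of all 18692 genes, and 0 of the 13 in the other 2 contrasts. At an unadjusted p under 0.05 stood 1, 2 and 2 of the 13 for MGE with LGE, MGE with CGE and LGE with CGE, where 1820, 2002 and 695 of all 18362 genes did. Of 16 genes that code for partner factors or mark the lateral eminence lineage, 5 were called between CTX and GE, and 0 in each contrast between eminences, where 3, 5 and 0 had an unadjusted p under 0.05 and DESeq2 called 2, 3 and 0 for MGE with LGE, MGE with CGE and LGE with CGE. In the same order DESeq2 called 664, 640 and 99 of all 18692 genes. Between CTX and GE DESeq2 called 12 of the 16, and 2344 of all 19031 genes, while edgeR called 5.46% of all. Dlx1, Dlx2, Gsx2 and Six3, homeobox genes of ventral progenitors and neurons, were lower in CTX, with log2 folds of −2.91, −2.39, −1.90 and −1.87, and Tshz1, a zinc-finger gene, was higher at 0.59.

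The deposited motif counts give the cuts in peaks that hold a motif, summed over the genome. Of the 10 motifs for MEIS, PBX, PKNOX and TGIF factors 0 were called by edgeR in each of the 4 contrasts, where 0% of all 579 motifs were called. DESeq2 called 0 of the 10 in each contrast, and 90, 5, 7 and 14 of all motifs. With an unadjusted p under 0.05 stood PBX2 (log2 fold −0.36) and PKNOX2 (−0.38) between CTX and GE, PKNOX1 (−0.75) between MGE and LGE, and 0 in the other contrasts. Over all motifs 126, 25, 17 and 60 had an unadjusted p under 0.05 between CTX and GE, MGE and LGE, MGE and CGE, and LGE and CGE. Over the 10 motifs the log2 folds ran from −0.53 to 0.29 between CTX and GE, −0.75 to 0.84 between MGE and LGE, −0.46 to 0.20 between MGE and CGE, and −0.83 to 0.57 between LGE and CGE.

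Over the 8 samples, the genes on other chromosomes whose summed levels were most like Meis2 were Shisa2 (r = 0.97), Atp8a2 (r = 0.94) and Igsf11 (r = 0.94). Those most like Meis1 were Armc1 (r = 0.98), Moap1 (r = 0.97) and Inka2 (r = 0.97), and those most like Pbx3 were Dedd2, Hipk1 and Ak7 (r = 0.98 each). These Pearson correlations of log2 CPM were the highest of 9299 genes searched, and the points share libraries, peak calling and depth.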

How the data were processed

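Per the labels, libraries were made by droplet single-nucleus ATAC-seq. The submitters' processing notes name Cell Ranger ATAC 1.2.0 and GRCm38 (mm10). The authors deposited raw counts per peak and barcode and raw counts per motif and barcode, with peaks called separately in each sample. Odd values make up 5.17% to 10.4% of the deposited entries, and the rest are even. All barcodes were kept, no doublets were called, and no source used here states the rule that filtered them. The study's paper describes other assays and was not used for methods.

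Counts were summed over nuclei per sample. Peaks were merged over samples, and an element's count in a sample is that of the sample's own peaks in it. Gene counts were sums over peaks touching a GENCODE M21 protein-coding gene body or the 20 kb upstream. For elements (68274 regions with a peak in all 8 samples), genes and motifs, edgeR 4.0.16 was run separately (R 4.3.3, glmQLFit and glmQLFTest, TMM, filterByExpr), with all 8 samples for CTX against GE and the 6 GE samples for contrasts between eminences, and a feature was called when its p, adjusted by Benjamini-Hochberg over every feature tested, was at most 0.05. Adjusted p-values in the text are from these fits. The SE given with a log2 fold is its absolute value divided by the square root of the quasi-likelihood F statistic. Elements were named by rule: per gene the most open start-site and distal elements, and per contrast up to 3 called elements with the largest fold in each direction or, with none called, the smallest p in each direction. The genes, lists and rules were chosen with earlier results of these data known. The comparison of CTX with GE for the list of other TALE genes is not reported here.

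Nuclei were clustered on 58067 regions outside chromosomes 2 and 11 (latent semantic indexing, Leiden resolution 0.5), giving 13 clusters. A cluster was named where at least 3 markers of a list were raised by a log2 fold of 0.25 and the list's mean log2 fold was at least 0.2. These limits were lowered after the clusters were seen, which named cluster 1. In cluster 1, 5 of 8 progenitor markers were raised, without Sox2, Hes1 and Hes5, at a mean log2 fold of 0.23. At resolution 1, 19.8% to 31.1% of nuclei in the LGE and CGE samples had no name. Counting intervals are not given, since cuts are not independent molecules. Alternatives were DESeq2 1.42.0, RLE scaling, no filter, other windows and region sets, covered-length and GC offsets, all 8 samples, a replicate block and leaving out each sample.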

Additional observations from a re-analysis of the deposited data

Results flagged for a closer look

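In CTX replicate 2, 83.4% of nuclei fell in clusters with no name, which the class comparisons did not use, and these nuclei held counts of all 3 genes. The levels there were 241.6 CPM for Meis1, 440.1 for Meis2 and 232 for Pbx3, over 4126 nuclei of this 1 sample. In progenitor-like nuclei of CTX replicate 1 the same genes stood at 305, 732 and 198 CPM, and no test was made between these single samples.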

How the results depend on the processing

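Of the counts of calls under alternatives, 122 stayed within 1.5 times the reported count and 37 did not. The 122 include counts of 0 that stayed 0, as those of the 10 motifs did under every alternative in all 4 contrasts. With the offset for covered length, called elements numbered 5 in CTX against GE, 6 and 1 for MGE against LGE and against CGE, and 3 between LGE and CGE, and the median of all regions moved to between −0.17 and 0.26. With DESeq2 they numbered 17 (MGE against LGE) and 4 (LGE against CGE), where 11404 and 2754 of all 68274 regions were called. With all 8 samples in the fit called elements numbered 4 (MGE against LGE) and 1 (MGE against CGE). With regions that had a peak in 2 or more samples they numbered 5 and 4 in those contrasts. Leaving out 1 sample gave 7 to 20 (CTX against GE), 7 to 11 (MGE against LGE) and 4 to 13 (MGE against CGE).

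Of the 3 genes, 0 were called with the covered-length offset in CTX against GE and in MGE against LGE, and 0 in MGE against LGE with all 8 samples or with 2 kb upstream. DESeq2 called 2 genes in each contrast of MGE and 1 (Meis2) in LGE against CGE. Leaving out 1 sample gave 0 to 2 (CTX against GE) and 0 to 1 (MGE against LGE). Meis2 in CTX against GE ranged from −0.060 without CTX replicate 1 to 0.52, called, without CTX replicate 2.

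With the covered-length offset, log2 folds turned to −0.033 for Meis2 in CTX against GE, to 0.18, 0.41 and 0.30 for Meis1, Meis2 and Pbx3 in MGE against CGE, and to 0.37 for Meis1 in LGE against CGE, while the median of all genes moved to −0.17, 0.12 and 0.31. Uncalled Pbx3 folds ranged from −0.25 to 0.046 in MGE against LGE, from −0.21 to 0.15 in MGE against CGE and from −0.13 to 0.24 in LGE against CGE when 1 sample was left out. They turned to 0.046 and 0.015 without MGE replicate 1 and LGE replicate 2, to 0.090 and 0.15 without MGE replicate 1 and CGE replicate 2, and to −0.064 and −0.13 without LGE replicate 2 and CGE replicate 1.

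Meis2 element 12 was called under all 14 alternatives in both MGE contrasts, with log2 folds from −3.12 to −1.66 against LGE, and Meis1 element 21, Pbx3 element 25 and Meis2 element 55 were called under all 15 in CTX against GE. Over the named elements 178 values kept their side of the threshold and direction, 23 lost the call, 1 gained it and 0 turned. With the replicate block Meis2 in MGE against LGE was not called (log2 fold −0.91, adjusted p of edgeR 0.13), so 0 genes were, and 15, 14, 11 and 0 elements were called in the 4 contrasts. The labels do not say that a number marks a shared batch. Deviations of same-numbered samples correlated at −0.042 to 0.32 over 68274 regions, and odd values made up 9.54% to 10.4% of entries in the replicate 1 libraries and 5.17% to 5.85% in the replicate 2 libraries. The causes of these changes were not tested.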
